A study of Mus musculus with 8 samples.

Results

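The genes described are 10 genes of MHC class I antigen presentation: the heavy chain genes H2-K1, H2-D1 and H2-T23, the light chain gene B2m, the peptide transporter genes Tap1 and Tap2, the loading chaperone gene Tapbp, and the immunoproteasome subunit genes Psmb8, Psmb9 and Psmb10. They were taken by name, as every probe set that the platform annotation assigns to exactly 1 of them. That gave 26 of 45037 probe sets, for 9 of the 10 genes, where 18193 genes in all had a probe set of their own. H2-T23 had no probe set of its own. Another 5 probe sets were assigned to a member together with other genes and are given apart.

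Total RNA of 2 mouse cell lines, SThdh7/7 and SThdh111/111, had been hybridised to Affymetrix expression arrays, 4 samples of each line. Such lines derive from the striatum of mouse embryos and were immortalised with a temperature-sensitive oncogene. They are named for the polyglutamine length, 7 or 111, of both alleles of the Huntingtin gene (Htt). The length of 111 comes from a knock-in, while 7 is the wild-type length in mice. No treatment or time is given for either group. Each group is a single line, so genotype and any other difference between the lines cannot be told apart, and p-values measure only the spread between the 4 samples of a line, which nothing in the labels says are separate cultures. The series title concerns histone acetylation at genes of reduced expression in Huntington's disease models. The comparison of the lines gives the transcripts that are lower or higher in the SThdh111/111 line than in the SThdh7/7 line.

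Class I molecules show fragments of a cell's own proteins to cytotoxic T cells. Proteasomes cut the proteins, the TAP transporter carries the peptides into the endoplasmic reticulum, and tapasin with general chaperones helps to load them onto a heavy chain that is paired with beta-2-microglobulin. Interferons raise the transcription of most of these genes and switch the catalytic subunits of the proteasome to inducible ones. Neurons and their progenitors at rest are known for low class I expression. Heavy chain genes are highly polymorphic between mouse strains, and the labels give no strain.

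The 8 arrays were scaled alike, and their number limits the precision. SThdh7/7 samples 1 and 2 had higher median intensities (173.9 and 174.0) than the other 6 arrays (136.2 to 147.0), so member values are also given without them where that changes a call. An intensity floor was set from bacterial control probe sets, at a log2 of 7.02. Array by array, the same percentile of these controls ran from 6.62 to 7.02 in SThdh7/7 and from 6.17 to 6.28 in SThdh111/111, which bears on dim probe sets. Its part in their differences was not tested. Markers of other cells were low or mixed. Of 18 measured haematopoietic and microglial markers 2 were called higher and 2 lower, beside 9.87% called higher and 12.6% lower among all probe sets tested. Their summed intensity ran from 3608 to 5058 in SThdh7/7, where Cd68 was the brightest, and from 3072 to 3535 in SThdh111/111. Of these markers 5 lay below the floor on all 8 arrays, among them Ptprc, Aif1 and Itgam, which define leukocytes and microglia. Csf1r, a receptor of macrophages and microglia, was above the floor on every array and rose from a mean of 8.84 to 9.32 at its brightest probe set. Of its 3 probe sets this 1 alone was called higher. Cd14, a myeloid receptor, rose from 8.99 to 9.44, a call lost in 6 of the 8 fits that each dropped 1 sample (SThdh7/7 sample 1 or 4 or any 1 of SThdh111/111). Cd68, a lysosomal marker of macrophages, fell by 1.75 in log2 units, and Trem2, a microglial receptor, was not called, above the floor on 2 SThdh7/7 and 4 SThdh111/111 arrays. The part of such cells in the member differences was not tested. Among 17 neural and striatal markers 3 rose and 5 fell. Their summed intensity ran from 56276 to 60934 in SThdh7/7 and from 51772 to 55857 in SThdh111/111. Most of that sum was Vim, at a mean log2 of 15.5 in both lines, so the sum says little of the other markers. The progenitor factor gene Sox2 fell by 2.06 on the log2 scale but stayed above the floor, and Pax6, above it on all SThdh7/7 arrays, was below it on all SThdh111/111 arrays. Higher in SThdh111/111 were the striatal neuropeptide gene Penk, by at least 2.41 in log2 units (adjusted p = 2.5e-05 as measured), and the forebrain factor gene Dlx2, by at least 1.13 (adjusted p = 0.0027 as measured). Of the 17, 4 lay below the floor on all 8 arrays: Tubb3, Ppp1r1b, Drd1 and Gsx2. In such bulk samples, fewer cells of a type and less RNA per cell cannot be told apart.

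All 9 genes with a probe set of their own were higher in SThdh111/111 at their brightest probe set, with differences of 0.86 to 4.81 on the log2 scale and a median of 2.32. Of the 26 probe sets, 22 were called higher and none lower (limma, adjusted p under 0.05), against 9.87% called higher and 12.6% called lower among all 41409 tested. Of those calls over all probe sets 56.0% were lower, and 39.5% once the arrays were centred on their medians. The other 4 member probe sets had SThdh7/7 means below the floor. The median difference was 2.15 over the 26 and -0.12 over all probe sets tested. All 26 passed the filter on dim probe sets, 1 of them, a second probe set of Psmb8, through the SThdh111/111 arrays. Of the probe sets above the floor on all 8 arrays, 14 of 14 members were called higher, beside 17.5% of 18131 such probe sets overall. On 22 member probe sets all SThdh111/111 arrays lay above all SThdh7/7 arrays, as on 11.0% of all probe sets tested.

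**Figure D1:**
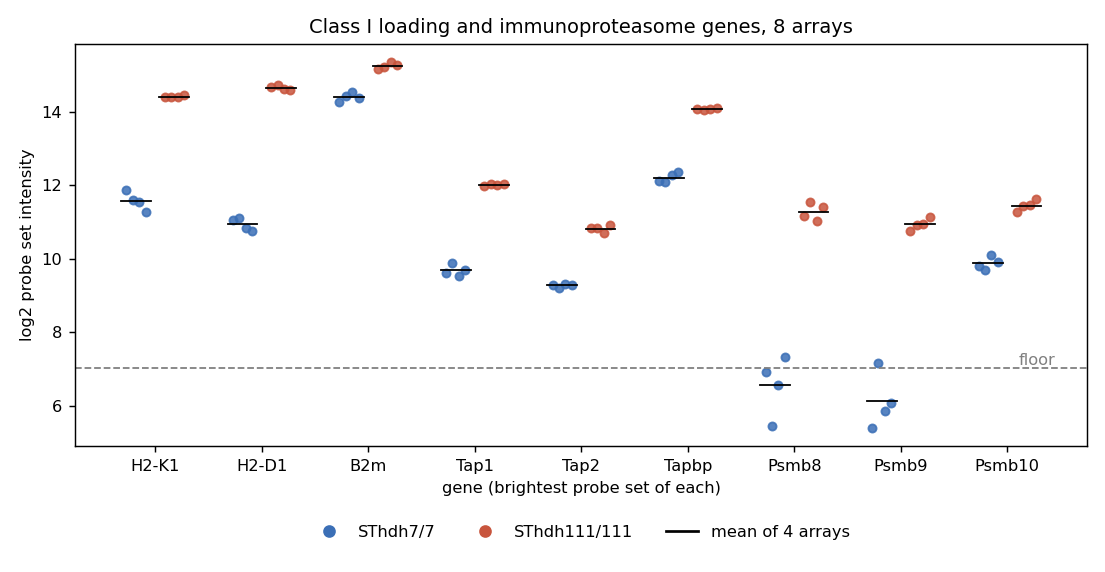
Log2 intensity of the brightest probe set of each of the 9 genes on each array (points; blue SThdh7/7, red SThdh111/111; black bars, means of 4 arrays; dashed line, the floor at 7.02). The 2 lines are separated for every gene, most narrowly for B2m, and Psmb8 and Psmb9 lay at or below the floor on 3 of 4 SThdh7/7 arrays.

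The classical heavy chains, which bind the peptide and face the T cell receptor, showed large differences at bright probe sets. H2-K1 was measured at 11.86, 11.58, 11.53 and 11.28 (log2 intensity, SThdh7/7 samples 1 to 4) at its brightest probe set, 1425336_x_at. On the SThdh111/111 arrays it read 14.39, 14.39, 14.40 and 14.44. The SThdh111/111 arrays were nearly equal and all lay far above the spread of the other line. The rise was 2.84 ± 0.10 (SE; n = 4 and 4; limma adjusted p = 9.2e-11), 7.17-fold. The other 3 H2-K1 probe sets rose by 3.98 ± 0.07, 3.72 ± 0.08 and 1.89 ± 0.12 (SE), so the 4 probe sets of this gene did not give 1 size.

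H2-D1, the other classical heavy chain gene annotated here, had 9 probe sets. Its brightest, 1425545_x_at, read 11.04, 11.11, 10.82 and 10.74 in SThdh7/7 and 14.67, 14.72, 14.62 and 14.58 in SThdh111/111. No array of one line came near the other, and the rise was 3.72 ± 0.08 (SE; limma adjusted p = 1.5e-12), 13.2-fold. The next 2 in brightness, 1451784_x_at and 1451683_x_at, rose by 3.90 ± 0.07 and 4.32 ± 0.10 (SE). The probe set 1426324_at was at 6.54, 5.34, 7.75 and 7.76 in SThdh7/7, so 2 of its 4 arrays passed the floor, and at 11.56, 11.88, 11.47 and 11.55 in SThdh111/111. With sub-floor values raised to the floor, the difference was at least 4.22 (log2), or 18.7-fold. This probe set is 1 of 2 for the gene whose name does not mark it as able to match several transcripts.

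The remaining 5 H2-D1 probe sets were dim and disagreed. Against the floor, 1450170_x_at was at least 1.58-fold higher and 1427651_x_at at least 1.31-fold. For 1451934_at the bound was 1.04-fold, with 2 of 4 SThdh111/111 arrays above the floor. Its call (difference 1.13; limma adjusted p = 0.035) did not hold in 6 of the 8 fits that each dropped 1 sample, those without SThdh7/7 sample 2 or 4 or any 1 of the SThdh111/111 samples (adjusted p = 0.053 to 0.099), and without SThdh7/7 samples 1 and 2 (adjusted p = 0.072). The lines overlapped at 1452544_x_at (difference 0.97; limma adjusted p = 0.12). They also overlapped at 1425614_x_at, which lay below the floor on all 8 arrays (difference -0.61, and -0.03 without SThdh111/111 sample 1; adjusted p = 0.67) and is the only member probe set with a difference below 0.

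Names ending in _x_at mark probe sets whose probes can match several transcripts, and 11 of the 13 probe sets of H2-K1 and H2-D1 carry that ending. These genes are close relatives, so the array does not assign a signal firmly to either. A probe set annotated to H2-K1 and H2-D1 together, 1424948_x_at, rose from 9.59, 9.32, 10.07 and 9.87 to 12.53, 12.58, 12.82 and 12.92, by 3.00 ± 0.14 (SE; limma adjusted p = 2.6e-09). One shared by H2-K1 and H2-Q5 was above the floor on all 8 arrays and differed by 0.27 ± 0.18 (SE; adjusted p = 0.35), with overlapping lines. The probe set shared by H2-D1, H2-Q2 and Gm38417 lay below the floor in both lines.

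H2-T23 encodes the nonclassical heavy chain Qa-1, which presents leader peptides of other class I chains to natural killer cell receptors. Both of its probe sets are annotated to H2-T-ps as well, so neither can be credited to it alone. The bright one, 1449556_at, read 11.07, 11.12, 11.28 and 11.20 in SThdh7/7 and 12.90, 12.99, 13.19 and 13.17 in SThdh111/111, a rise of 1.90 ± 0.08 (SE; limma adjusted p = 6.3e-10) with no overlap. The dim one, 1419658_at, straddled the floor in both lines, above it on 2 of 4 arrays of each, and differed by -0.17 ± 0.36 (SE; adjusted p = 0.81).

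**Figure D2:**
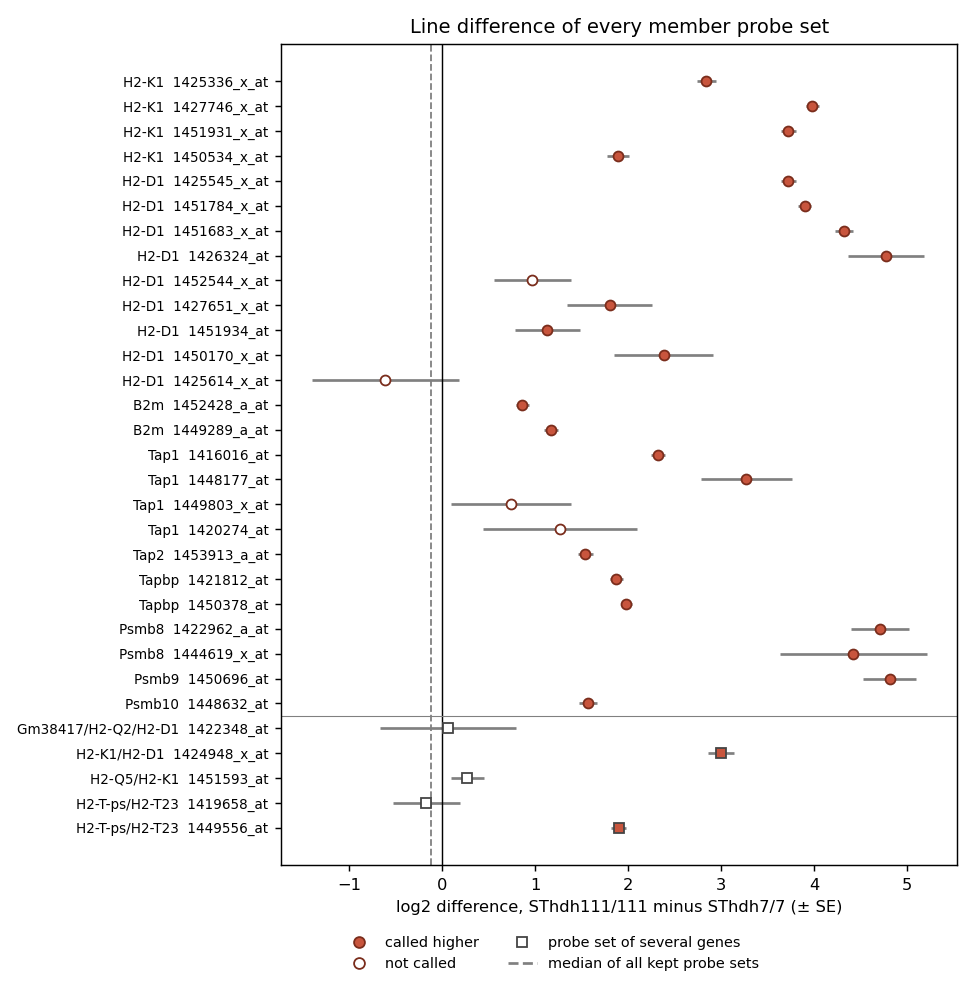
Log2 difference (SThdh111/111 minus SThdh7/7, point, with its SE as the bar) of each of the 26 member probe sets (circles) and of the 5 shared with other genes (squares below the line), named at the left; filled marks were called higher. The dashed line is the median over all probe sets tested, -0.12. The 4 open circles and the widest bars belong to probe sets that were dim in SThdh7/7.

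B2m, the light chain of nearly every class I molecule at the cell surface, gave high signals in both lines. Its brightest probe set, 1452428_a_at, read 14.25, 14.43, 14.52 and 14.36 in SThdh7/7 and 15.17, 15.20, 15.34 and 15.26 in SThdh111/111. The lines were separate, and the rise was 0.86 ± 0.07 (SE; limma adjusted p = 5.5e-07), 1.81-fold. The other B2m probe set rose by 1.17 ± 0.07 (SE; adjusted p = 5.7e-08). Without SThdh7/7 samples 1 and 2, the lower pair at that probe set (13.82 and 13.90 against 14.10 and 14.11), this rise was 1.04. After quantile normalization the rise was 0.67 at the brightest probe set and 0.91 at the other, both still called. The highest signal of any probe set on the SThdh111/111 arrays was 15.50 to 15.61. Whether signals so near the top of the scale are compressed was not tested.

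The sequences before the annotated starts of these chains are printed because the heavy and light chain genes rose together and their known control elements lie there. They are the 250 bases upstream of the start, from RefSeq on GRCm38.p6, for which 9 of the 10 genes had an entry. H2-K1 is read on the minus strand of chr17:34000334-34000583, the more downstream of its 2 annotated starts, H2-D1 on the plus strand of chr17:35262844-35263093 and B2m on the plus strand of chr2:122147437-122147686. Capitals mark, on either strand, GGG and CCC with 5 bases of any kind between (a palindromic form of the NF-kappaB site) and a GAA or GAAA with a second GAAA 2 bases behind it (paired cores of the kind that interferon regulatory factors bind). No marked match overlaps another.
H2-K1: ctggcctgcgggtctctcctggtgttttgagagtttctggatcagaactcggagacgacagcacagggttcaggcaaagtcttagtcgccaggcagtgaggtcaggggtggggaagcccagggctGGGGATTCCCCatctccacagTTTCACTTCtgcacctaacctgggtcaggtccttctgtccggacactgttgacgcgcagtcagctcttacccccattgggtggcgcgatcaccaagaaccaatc
H2-D1: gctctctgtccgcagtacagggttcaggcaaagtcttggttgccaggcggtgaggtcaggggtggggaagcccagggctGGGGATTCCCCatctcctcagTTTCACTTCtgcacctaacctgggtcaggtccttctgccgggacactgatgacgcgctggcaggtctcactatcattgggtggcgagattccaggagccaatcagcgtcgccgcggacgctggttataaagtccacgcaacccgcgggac
B2m: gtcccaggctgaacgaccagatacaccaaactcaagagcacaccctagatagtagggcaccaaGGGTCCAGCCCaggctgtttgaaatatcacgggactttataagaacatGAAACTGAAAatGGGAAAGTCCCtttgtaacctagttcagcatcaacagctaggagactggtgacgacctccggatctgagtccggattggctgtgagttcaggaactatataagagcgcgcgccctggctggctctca
H2-K1 and H2-D1 were 87.2% identical over 203 aligned bases, and share the stretch GGGGATTCCCC and, behind it, TTTCACTTC, the reverse strand of the GAA form of the paired core. B2m has GAAACTGAAA followed by GGGAAAGTCCC, and a further kappaB-type match, GGGTCCAGCCC, farther upstream. Of 32851 windows of this length in the RefSeq table, 12.2% held a kappaB-type match, 6.31% the GAA form and 2.98% the GAAA form of the paired core. Among the 9 member genes in the table the numbers were 5, 2 and 2, where the kappaB-type match of Psmb9 and that of Tap1 are 1 and the same stretch between these genes, read on opposite strands. Searched as well, but not marked, were TGACG (17.8% of windows, 5 of the member genes) and CCAAT (33.8% of windows, 7 of the member genes). The motifs were chosen after these windows had been read, and a match is a run of letters, not a measured site.

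The TAP transporter is a pair of ABC proteins, and the Tap1 signal rose more than that of Tap2 at the brightest probe set of each. Whether the 2 probe sets respond alike to their transcripts was not tested. Tap1 was at 9.62, 9.89, 9.53 and 9.69 in SThdh7/7 and at 11.97, 12.04, 11.99 and 12.03 in SThdh111/111 (log2 intensity, 1416016_at). The lines did not overlap, and the rise was 2.32 ± 0.08 (SE; limma adjusted p = 1.4e-10), 5.01-fold. Tap1 at 1448177_at was below the floor on all SThdh7/7 arrays and at least 2.33-fold higher in SThdh111/111 (adjusted p = 2.3e-04). The remaining pair of Tap1 probe sets lay below the floor on all 8 arrays and was not called. Their differences, 1.27 at 1420274_at and 0.74 at 1449803_x_at, were 0.34 without SThdh7/7 sample 3 and 0.22 without SThdh7/7 sample 1. Tap2, with 1 probe set, read 9.28, 9.21, 9.31 and 9.29, then 10.82, 10.84, 10.70 and 10.90, a rise of 1.54 ± 0.08 (SE; adjusted p = 7.4e-09), 2.92-fold. The ratio of Tap1 to Tap2 within an array was higher by 0.78 on the log2 scale in SThdh111/111, with no overlap between the lines (exact permutation test, two-sided, p = 0.029, the smallest that 4 against 4 samples allow, and 0.032 adjusted over 36 pairs of members).

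Tapbp encodes tapasin, which bridges the transporter and the empty heavy chain. Its brightest probe set read 12.10, 12.08, 12.26 and 12.35 in SThdh7/7 and 14.06, 14.05, 14.06 and 14.09 in SThdh111/111, a rise of 1.87 ± 0.07 (SE; limma adjusted p = 1.5e-10), 3.65-fold. The other probe set rose by 1.98 ± 0.06 (SE; adjusted p = 5.0e-11). Neither name ends in a mark for several transcripts, and no array of one line reached the other at either.

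All 3 immunoproteasome genes were higher in SThdh111/111, and Psmb8 and Psmb9 were near or below the floor in SThdh7/7. Psmb8, the inducible chymotrypsin-like subunit, read 6.92, 5.45, 6.57 and 7.32 in SThdh7/7 and 11.15, 11.54, 11.02 and 11.40 in SThdh111/111. Of the SThdh7/7 arrays 1 was above the floor, and with the other 3 set to it the difference was at least 4.18 (log2), or 18.2-fold (limma adjusted p = 6.3e-08 on the values as measured). Its other probe set, below the floor on all SThdh7/7 arrays, was at least 1.57-fold higher. Psmb9, the inducible counterpart of the caspase-like subunit, read 5.40, 7.15, 5.85 and 6.06, then 10.74, 10.90, 10.94 and 11.13. Here too 1 SThdh7/7 array, sample 2, was above the floor, and the rise was at least 3.87, or 14.6-fold (adjusted p = 3.1e-08 as measured).

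Psmb10, the inducible trypsin-like subunit, was already well above the floor in SThdh7/7. It read 9.79, 9.68, 10.11 and 9.92 there and 11.27, 11.42, 11.46 and 11.61 in SThdh111/111, a rise of 1.57 ± 0.10 (SE; limma adjusted p = 6.7e-08), 2.96-fold. The ratio of Psmb8 to Psmb10 rose by at least 2.62 and that of Psmb9 to Psmb10 by at least 2.31 (log2), with sub-floor values raised to the floor. Neither ratio overlapped between the lines (exact permutation test, p = 0.029 each), so the signals of the 3 inducible subunits did not rise equally.

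Psmb9 and Tap1 are neighbours that are read away from each other, and Psmb8 and Tap2 come next on chromosome 17, the 4 genes following one another in the RefSeq gene table of GRCm38.p6. H2-K1, H2-D1, H2-T23 and Tapbp are on that chromosome as well, B2m is on chromosome 2 and Psmb10 on chromosome 8. The 225 bases between the starts of Psmb9 and Tap1 serve as the upstream sequence of both genes, which both rose, and are printed for that reason. They are chr17:34187331-34187555 (GRCm38.p6), read on the plus strand towards Tap1, with capitals for the same motifs.
Psmb9 and Tap1 interval: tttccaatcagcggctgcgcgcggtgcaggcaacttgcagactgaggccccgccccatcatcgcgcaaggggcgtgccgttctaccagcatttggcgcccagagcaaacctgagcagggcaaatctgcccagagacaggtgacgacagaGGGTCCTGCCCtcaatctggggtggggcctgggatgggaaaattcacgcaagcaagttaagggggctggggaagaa
The interval held 1 kappaB-type match, GGGTCCTGCCC, and none of either paired core. The windows of Psmb8, Psmb10 and Tapbp held no match to these 3 motifs, while that of H2-T23 held TTTCTCTTTC, the reverse strand of the GAAA form. The absence of a match says only that these letters are not in the window. The signals of Tap1 and Psmb9 did not rise equally. The ratio of Psmb9 to Tap1 was higher by at least 1.55 (log2) in SThdh111/111, with sub-floor values raised to the floor (exact permutation test, p = 0.029).

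Each inducible subunit takes the place of a constitutive one in newly built proteasomes, so each was set against it within the array. Psmb5 read 12.42, 12.34, 12.50 and 12.44 in SThdh7/7 and 12.21, 12.27, 12.28 and 12.51 in SThdh111/111, with overlapping lines (difference -0.11 ± 0.07, SE; limma adjusted p = 0.37). Psmb6 differed by 0.07 ± 0.09 (SE; adjusted p = 0.67) and Psmb7 by -0.09 ± 0.06 (SE; adjusted p = 0.36). None of the 3 passed the test, and the lines overlapped for each. The log2 ratio of Psmb8 to Psmb5 was -5.50, -6.89, -5.92 and -5.12 in SThdh7/7 and -1.06, -0.73, -1.26 and -1.11 in SThdh111/111, a change of at least 4.29 with sub-floor values raised to the floor (4.82 as measured). That of Psmb9 to Psmb6 changed by at least 3.80 in the same way (4.74 as measured), and that of Psmb10 to Psmb7, measured in both lines, by 1.66. Each of the 3 ratios separated the lines (exact permutation test, two-sided, p = 0.029, and 0.029 adjusted over the 3 pairs, the smallest possible). A ratio between probe sets shows an unequal change, not how many of either subunit a cell holds.

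**Figure D3:**
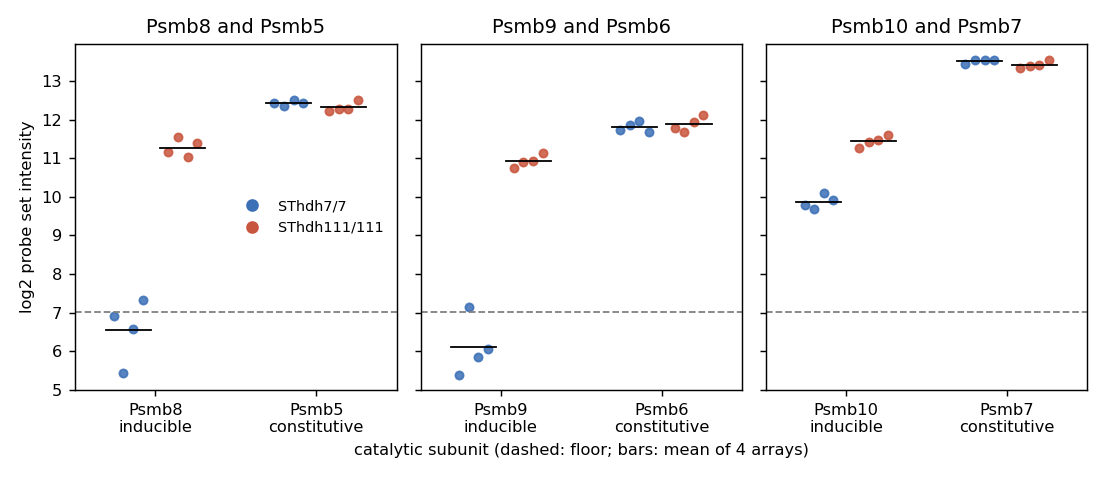
Log2 intensity on each array of the 3 inducible proteasome subunits (left in each panel) and of the constitutive subunit that each replaces (right); points are arrays, black bars means of 4, the dashed line the floor. The inducible subunits separate the lines (blue SThdh7/7, red SThdh111/111), while the constitutive ones overlap.

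Rises of the 9 genes were compared in all 36 pairs, as the change of the within-array ratio of their brightest probe sets with sub-floor values raised to the floor, a comparison added after the data were seen. In 32 pairs the ratio differed between the lines (exact permutation test, p = 0.029, adjusted over the 36 pairs 0.032, with no overlap). The 36 pairs reuse the same 9 genes and are not independent. How often pairs of other probe sets separate in this way was not tested, so the count is no trait of the members. The 4 pairs that did not pass were Psmb10 with Tap2 (change 0.02), Psmb9 with H2-D1 (0.15), Psmb8 with Psmb9 (0.31) and Psmb8 with H2-D1 (0.46). The measured rise of B2m was smaller than that of each of the other 8, for instance by 2.86 than that of H2-D1 and by 0.69 than that of Tap2, with the limit that B2m lay near the top of the scale in SThdh111/111, where compression was not tested. Changes of the ratio of Psmb8 or Psmb9 to any of the other 7 genes are lower bounds, and the change of Psmb8 to Psmb9 is no bound. Over every combination of probe sets above the floor on all 8 arrays (for Psmb8 and Psmb9, the brightest one), 24 of the 32 pairs kept both the direction and the separation. Of the 8 that did not, 7 involved H2-K1, whose probe sets differed in size: the ratio of H2-D1 to H2-K1 changed by -0.26 to 2.43, so no order between these heavy chains is given. The other was Tap2 with B2m (change 0.38 to 0.69).

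Other genes of the pathway were taken from lists chosen by role, each gene at its brightest probe set, and moved less evenly. Of all probe sets tested 9.87% were called higher and 12.6% lower, shares beside which the counts of each list stand. Among 10 further heavy chain and class I-like genes 4 rose and 2 fell, with a median difference of 0.47. Of the 4, H2-M3 lost its call in 4 and H2-Bl in 3 of the 8 fits that each dropped 1 sample. Fcgrt, the heavy chain of the neonatal Fc receptor, which also pairs with B2m, rose by 1.50 ± 0.10 (SE; limma adjusted p = 6.4e-08), and H2-T24 was at least 1.20-fold higher against the floor. Mr1, which presents vitamin metabolites, fell by 1.24 in log2 units (adjusted p = 1.3e-04), and Cd1d1, which presents lipids, fell by 0.83 (adjusted p = 0.0028). Both pair with B2m too. The list holds 21 genes, of which 10 had a probe set of their own that passed the filter.

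Chaperones and peptidases of loading rose or were not called. Of 13 measured, 8 rose and none fell (median 0.32), beside 17.5% called higher among probe sets above the floor on all 8 arrays. Pdia3, Erap1, Tapbpl and Ganab were each called at 1 of 2 probe sets. Hspa5, the general chaperone BiP, rose by 0.49 ± 0.06 (SE; limma adjusted p = 3.5e-05) and calreticulin (Calr), which holds the heavy chain in the loading complex, by 0.43 ± 0.06. Both have other functions in protein folding. Their rises stood at 0.22 and 0.18 after quantile normalization, still called. Sec61a1, higher by 0.25, overlapped between the lines. Its call was lost after quantile normalization, after the arrays were centred on their medians and without SThdh7/7 samples 1 and 2. Without SThdh7/7 samples 1 and 2, 1 gene of the list was called lower.

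Constitutive subunits of the proteasome core changed in both directions or were not called. Of 14 constitutive subunits of the core particle 2 rose and 3 fell (median -0.02), beside 9.87% called higher and 12.6% called lower over all probe sets tested. Psmb1 rose by 0.70 ± 0.09 (SE; limma adjusted p = 7.7e-05), called at 1 of its 3 probe sets. Psma3 fell by 0.38 in log2 units (adjusted p = 9.5e-04), called at 1 of its 2. After the arrays were centred on their medians, 1 subunit, Psmb1, was called higher and 0 lower. Of 9 activators and assembly factors 2 rose and 2 fell, beside the same shares. Psme1, a subunit of the interferon-inducible activator PA28, rose by 0.74 ± 0.09 (SE; adjusted p = 3.0e-05) and the inhibitor gene Psmf1 by 0.43 ± 0.08, while the 2 lower calls, among them that of Psme4 (difference -0.58), were lost after centring.

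Transcription factors of class I genes did not change as 1 group, 5 of 14 higher and 3 lower, with a median of 0.00. Over all probe sets tested 9.87% were called higher and 12.6% lower. The 5 were Stat2, Irf9, Irf1, Irf2 and Nlrc5, which took in every measured Irf and Stat gene of the list. Irf1 rose by 0.63 ± 0.10 (SE; limma adjusted p = 2.3e-04). Irf2 rose by at least 1.19 with sub-floor values raised to the floor (adjusted p = 0.0061 as measured). Stat2 and Irf9, which act together downstream of type I interferon, rose by 3.20 ± 0.08 and 2.08 ± 0.09 (SE; limma adjusted p = 6.9e-12 and 6.0e-10). Nlrc5, a transactivator of class I genes and chosen after its values were seen, passed the floor on 2 SThdh7/7 arrays and on all SThdh111/111 arrays, a difference of at least 2.65 (log2; adjusted p = 5.8e-05 as measured). Rfxank, a partner in that system, fell by 0.72 on the log2 scale, called at 1 of its 3 probe sets. Rela, an NF-kappaB subunit, fell by 0.30, a call lost after centring, where 1 of the 14 was called lower.

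Class II genes mark professional antigen-presenting cells. Of 13 measured genes of that list, which holds other markers of these cells too, 2 rose, beside 9.87% of all probe sets tested: H2-Eb1 by 0.76 ± 0.12 and the costimulator gene Cd80 by 0.68 ± 0.12 (SE). None fell. H2-Ab1 was below the floor on all 8 arrays and H2-Aa on 7 of them. Cd74, the invariant chain, differed by -0.20 ± 0.24 (SE; limma adjusted p = 0.65), and the class II transactivator gene Ciita was above the floor on 2 of 8 arrays. The summed intensity of the 13 genes ran from 2725 to 3266 in SThdh7/7 and from 3692 to 4206 in SThdh111/111, and 3 of them lay below the floor on all arrays. The part of such cells in the member differences was not tested.

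**Figure D4:**
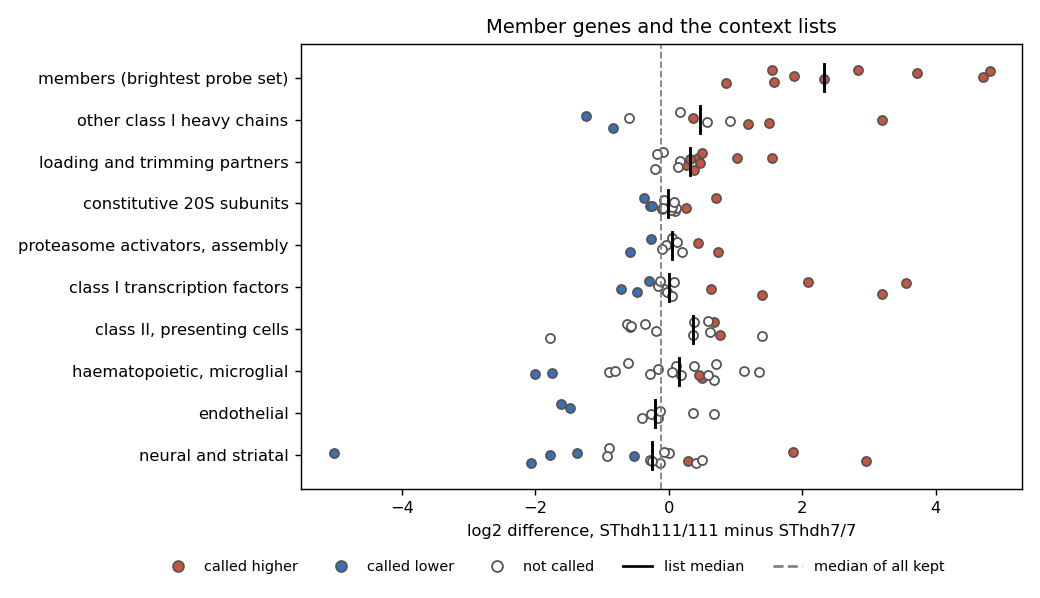
Log2 difference (SThdh111/111 minus SThdh7/7) of each gene of the 9 members and of the 9 context lists, 1 point per gene at its brightest probe set, values as measured (red called higher, blue called lower, open not called), with each list's median as a black bar and the median of all probe sets tested, -0.12, as a dashed line. The member points all lie at 0.86 or above, while each context list has points on both sides of 0.

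Over 9229 genes with a SThdh111/111 mean of at least 8, the 5 whose profile over the 8 arrays was nearest to the mean profile of the members, both centred on their own mean, were Rcn3, Ifi202b, Lmcd1, Tor3a and Hsd17b11. Their root mean square distances were 0.042 to 0.102 on the log2 scale, and those of the members themselves 0.186 (H2-K1) to 1.152 (Psmb9). With 2 lines this measure ranks mostly the size of the difference, which was 2.60 to 2.74 for these 5.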

How the data were processed

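Total RNA of 4 SThdh7/7 and 4 SThdh111/111 samples was extracted with Tri-reagent and RNeasy columns and hybridised to Affymetrix arrays, per the labels' protocols. The authors deposited 1 linear intensity per probe set and array. GCRMA is named without a version per the submitters' processing notes, but the trimmed mean (2% off either end) was 500.0 on all arrays and values ran down with no common floor, so the tool behind them is not settled. Log2 values are used here, and dim ones are noisy.

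After 64 controls were left out, probe sets at a log2 of at least 4 on at least 4 of 8 arrays were tested (limma 3.58.1, R 4.3.3, lmFit, eBayes with an intensity trend, two-sided, Benjamini-Hochberg over 41409 probe sets, called at an adjusted p under 0.05), a setting checked on simulated data. Of all probe sets 34945 had 1 gene, 932 several and 9160 none, with symbols updated by Entrez number to GRCm38.p6. A gene's brightest probe set has the highest mean over all arrays. The floor was taken from 27 bacterial control probe sets, as their 95th percentile on the array where it was highest, an intensity of 130.0. A dimmer line with arrays under it has those arrays raised to the floor for the fold, which is then written "at least". Ratios were tested with exact permutation tests (scipy 1.17.1), and figures drawn with matplotlib 3.10.9.

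Named are all member probe sets, Psmb5, Psmb6 and Psmb7, from the 2 genes per list and direction with the smallest adjusted p those that a result turned on, and the 5 nearest profiles. Other list genes, such as Irf1, Irf2 and Vim, were named after their values were seen. Members, lists, the floor and the separate treatment of SThdh7/7 samples 1 and 2 were chosen with earlier results of these data known. Endothelial markers were listed too (2 of 8 fell, 0 rose, beside 12.6% called lower and 9.87% called higher over all probe sets tested). Alternatives covered filters, scaling, the trend, probe set endings, the sample number as a block and left-out samples.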

Additional observations from a re-analysis of the deposited data

Results flagged for a closer look

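Within a line of 4 arrays, 7 of 74 groups of values had 1 sample far from the rest relative to the group's range, where chance flags about 1 in 20. Most were dim. For H2-D1, SThdh7/7 sample 1 was lowest at 1427651_x_at (4.57, the others 5.87 to 6.11) and at 1425614_x_at (4.04, the others 6.37 to 6.80), SThdh7/7 sample 2 was highest at 1450170_x_at (6.89, the others 4.54 to 4.90), and SThdh111/111 sample 1 was highest at that probe set (8.38, the others 7.36 to 7.51). The probe set shared by H2-D1, H2-Q2 and Gm38417 was lowest on SThdh7/7 sample 3 (3.50, the others 5.92 to 6.15). All of these but the SThdh111/111 value are below the floor. Tap1 at 1448177_at was lowest on SThdh111/111 sample 4 (8.02, the others 8.30 to 8.35), and Psmb7 on SThdh7/7 sample 1 (13.44, the others 13.53 to 13.54).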

How the results depend on the processing

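Of 416 values of the 26 member probe sets under the alternatives, 408 kept their direction and side of the threshold, among them all 228 of the 14 probe sets above the floor on every array. The other 8 were lost calls of 1451934_at (H2-D1). Member calls numbered 21 to 22 with 1 sample left out, and calls over all probe sets 8115 to 8754, against 22 and 9288. Without probe sets ending in _x_at, _s_at or _a_at, 8 of the 9 members left were called higher, and 6132 probe sets in all. With the sample number as a replicate block 21 member probe sets were called, and 8828 in all. Same-numbered samples did not deviate together over all probe sets tested (correlations -0.0144 to 0.00903, 3 of 8 samples closest to their own number). No pairing by number was seen, though with many dim probe sets a weak one could be missed. With samples paired by number the subunit ratios kept their values, with an exact p of 0.12, the smallest that 4 pairs allow. After centring, the median difference over all probe sets was 0.04 in place of -0.12. The ratio of Psmb9 to Psmb6 changed by at least 3.80 with the floor (added after the data were seen), and that of Psmb10 to Psmb7 by 1.86 after quantile normalization. After centring, lists changed as follows: 1 constitutive core subunit higher and 0 lower, 0 activators and assembly factors lower, 1 class I transcription factor lower and 1 endothelial marker lower. Without SThdh7/7 samples 1 and 2, 1 loading partner was lower, 1 constitutive subunit higher, 1 haematopoietic marker lower and 1 endothelial marker lower.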
